A study of Mus musculus with 3 samples.

Results

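Foxd3 peaks were examined at the loci of 5 genes that mark the formative and primed states of pluripotency: Otx2, Fgf5, Pou3f1, Dnmt3a and Dnmt3b. A peak was taken when it overlapped the window drawn round the gene in mm9 coordinates, and the 5 windows add up to 1215 kb. They span 49175000 to 49390000 of chromosome 14 (Otx2), 98580000 to 98810000 of chromosome 5 (Fgf5), 124230000 to 124440000 of chromosome 4 (Pou3f1), 3700000 to 4020000 of chromosome 12 (Dnmt3a) and 153375000 to 153615000 of chromosome 2 (Dnmt3b). The windows held 6 of the 3406 peaks listed with the HA antibody and 8 of the 4569 listed with the Flag antibody. The cells were mouse embryonic stem cells of the LF2 line, transduced with a lentivirus carrying Foxd3 with Flag and HA epitope tags (FH-Foxd3), selected with neomycin and grown without feeders in serum and LIF. Per the series' design text the tagged protein was made at close to the endogenous level, on top of the cells' own Foxd3. Both libraries came from this cell line and differ in the antibody, anti-HA or anti-Flag, with 1 library each; the input of total genomic DNA was not analysed here. Cells lacking the fusion protein were not analysed here as a control, and the peak lists hold no expression value by which the cell state could be checked.

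Foxd3 is a forkhead transcription factor of the pluripotent epiblast and the neural crest. Embryonic stem cells in serum and LIF are largely in or near the naive state, and on release from LIF they pass through a formative state toward the primed state of the post-implantation epiblast. Otx2, a homeodomain factor, and Pou3f1 (also called Oct6), a POU domain factor, are induced early on this path and bind enhancers of the epiblast programme. Fgf5 encodes a secreted growth factor and is a classical marker of the post-implantation epiblast. Dnmt3a and Dnmt3b encode the de novo DNA methyltransferases, which methylate the genome during the same transition.

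The windows were assigned to genes by their coordinates alone, since no mm9 annotation was used here, so no peak was placed in an exon, an intron or a promoter. Each window may also reach neighbouring genes. In the RefSeq gene order of GRCm38.p6 the nearest protein-coding genes on either side are Tmem260 and Exoc5 for Otx2, Prdm8 and Cfap299 for Fgf5, Rragc and Utp11 for Pou3f1, Dtnb and Pomc for Dnmt3a, and Commd7 and Mapre1 for Dnmt3b.

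The DNA under the peaks was not read, as no mm9 genome was used here. The start sites of 4 of the 5 genes were matched in the RefSeq promoter table (GRCm38.p6), and 3 of their 9 upstream stretches of 250 bases are shown. From Otx2, whose window held the most peaks, 2 stretches with the word searched are shown, and from Dnmt3b 1 without it. The innermost Otx2 stretch, not shown, also lacked the word. Capitals mark the forkhead core word TGTTT or its reverse complement AAACA. The stretches lie at chr14:48667645-48667894 (minus strand), chr14:48665110-48665359 (minus strand) and chr2:153649199-153649448 (plus strand).
Otx2, outermost start: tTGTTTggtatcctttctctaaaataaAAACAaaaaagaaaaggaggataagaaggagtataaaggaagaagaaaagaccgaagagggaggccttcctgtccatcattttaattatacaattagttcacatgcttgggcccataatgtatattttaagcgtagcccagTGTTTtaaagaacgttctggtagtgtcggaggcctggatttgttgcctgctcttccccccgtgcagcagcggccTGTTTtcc
Otx2, inner start: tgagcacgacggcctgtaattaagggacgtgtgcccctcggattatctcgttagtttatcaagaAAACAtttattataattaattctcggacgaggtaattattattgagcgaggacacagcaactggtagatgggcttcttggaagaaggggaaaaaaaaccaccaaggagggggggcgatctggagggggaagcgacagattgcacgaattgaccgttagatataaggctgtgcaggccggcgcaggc
Dnmt3b: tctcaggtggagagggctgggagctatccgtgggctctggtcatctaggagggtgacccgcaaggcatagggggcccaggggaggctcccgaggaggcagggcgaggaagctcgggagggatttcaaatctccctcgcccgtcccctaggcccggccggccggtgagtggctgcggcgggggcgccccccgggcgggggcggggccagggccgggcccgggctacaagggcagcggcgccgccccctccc
The core word occurred 4 times in the first of these, 1 time in the second and 0 times in the third. It was found in 3 of the 4 Otx2 stretches, 2 of which overlap each other, and in none of the stretches of Fgf5, Dnmt3a and Dnmt3b, while 46.4% of the 32851 stretches in the table hold it. The GC content of the stretches was 42.0% to 53.6% for Otx2, 70.8% for Fgf5, 73.6% to 82.4% for Dnmt3a and 75.2% for Dnmt3b, against a median of 52.4% over the table. The 8 longer forkhead words, made of TGTTT or TATTT followed by AC, AT, GC or GT and searched on both strands, occurred in none of the 9 stretches and in 24.9% of all. Neither share over the table was matched for GC content. The stretches of Fgf5, Dnmt3a and Dnmt3b each had a higher GC content than at least 91.7% of all. A word match describes the letters of the 9 stretches. Their GRCm38.p6 positions cannot be set against the mm9 positions of the peaks.

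Pooled over both lists, the 14 peaks formed 9 separate sites, of which 5 were listed with both antibodies, 1 with HA only and 3 with Flag only. The Otx2 window held 4 sites, Dnmt3b 2, and Dnmt3a, Fgf5 and Pou3f1 1 each. Sites of both antibodies lay in the windows of Otx2 (3 sites), Dnmt3a (1) and Dnmt3b (1). The windows of Fgf5 and Pou3f1 held a Flag peak each and no HA peak. An overlap of 1 bp or more with a peak of the other list made a peak shared. Of the 6 HA peaks 5 were shared with Flag, which is 83.3% (95% Wilson interval 43.6 to 97.0), beside 73.3% over the whole HA list. Of the 8 Flag peaks 5 were shared with HA, which is 62.5% (30.6 to 86.3), beside 54.7% over the whole Flag list. Both shares are near those of the whole lists, which lie inside the intervals, so they are no result about these peaks.

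**Figure D1:**
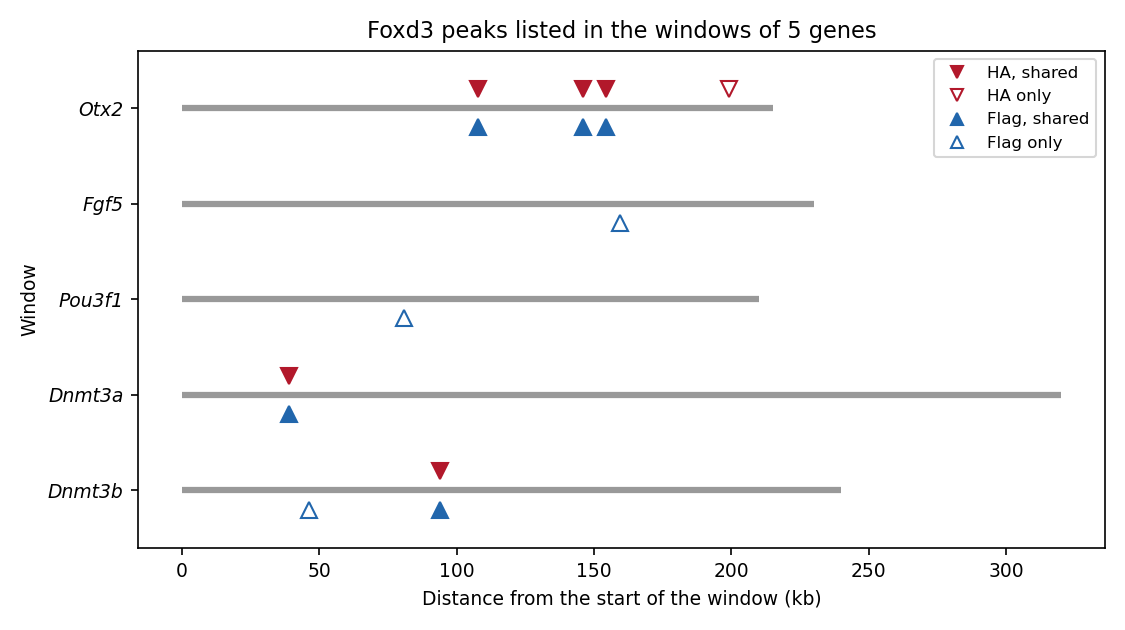
Peaks in the windows of the 5 genes, by distance in kb from the start of each window (grey bar), with HA peaks as triangles above and Flag peaks as triangles below the bar. Filled triangles are shared and open ones belong to 1 list: the Otx2 window shows 3 shared sites and 1 HA-only peak, while Fgf5 and Pou3f1 show a Flag-only peak each.

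At Otx2, 3 sites of both antibodies lay within 47.0 kb (chromosome 14, 49282525 to 49329503), followed by an HA-only peak nearer the end of the window. Otx2 site 1 had an HA peak of 380 bp (49282594 to 49282973) inside a Flag peak of 650 bp (49282525 to 49283174). Site 2, 37.3 kb further on, had an HA peak of 583 bp (49320512 to 49321094) inside a Flag peak of 843 bp (49320462 to 49321304). Site 3 had an HA peak of 469 bp (49329035 to 49329503) and a Flag peak of 559 bp (49328944 to 49329502). Sites 2 and 3 thus form a close pair in either list, with 7.94 kb between the HA peaks and 7.64 kb between the Flag peaks. Of all HA peaks 14.0% had another HA peak less than 10 kb away, and of all Flag peaks 13.9% had another Flag peak that near. The HA-only peak measured 557 bp (49373764 to 49374320) and lay 44.3 kb beyond the nearest Flag peak, which was that of site 3.

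The Otx2 window was the fullest of the 5. Its 4 HA peaks in 215 kb correspond to 18.6 per Mb (95% exact Poisson interval 5.07 to 47.6, counting error only), and its 3 Flag peaks to 14.0 per Mb (2.88 to 40.8). Over the span covered by the lists the densities were 1.30 HA and 1.75 Flag peaks per Mb. When all chromosomes were cut into 12164 consecutive tiles as long as this window, 0.493% held at least 4 HA peaks, 2.47% held at least 3 Flag peaks and 0.814% held at least 3 HA peaks shared with Flag. Exactly 3 HA peaks were held by a further 1.09% of tiles. The HA-only peak, counted among the 4, lay 15.7 kb before the window end. With the windows shortened by 25 kb at both ends, 3 HA peaks remained at Otx2. The fullest tile held 9 peaks in HA and 10 in Flag, so stretches fuller than the Otx2 window exist in both lists. The tiles were not matched to the windows, which were drawn round genes, for gene content. The window was also chosen with earlier results of these data known, so these shares are a description and not a test.

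**Figure D2:**
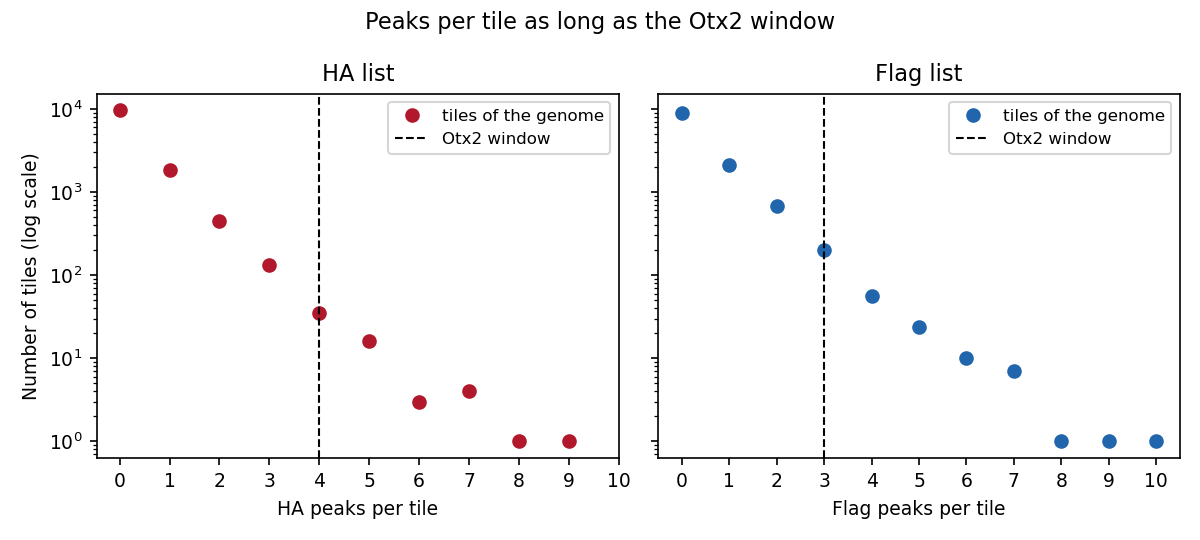
Number of genome tiles of 215 kb, the length of the Otx2 window (vertical axis logarithmic), by the number of HA peaks (left) or Flag peaks (right) they hold; a point stands for the tiles with that number of peaks. The dashed line marks the Otx2 window, with 4 HA and 3 Flag peaks, to the right of most tiles: 79.7% of tiles held no HA peak and 74.5% no Flag peak.

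The methyltransferase windows each held 1 site of both antibodies. At Dnmt3a, in a window of 320 kb, an HA peak of 608 bp (chromosome 12, 3738616 to 3739223) enclosed a Flag peak of 519 bp (3738651 to 3739169). It lay 38.9 kb from the start of the window, with 281 kb of the window after it free of peaks in either list. At Dnmt3b, in a window of 240 kb, an HA peak of 719 bp (chromosome 2, 153468608 to 153469326) met a Flag peak of 722 bp (153468413 to 153469134). A further Flag-only peak of 531 bp (153420775 to 153421305) lay 47.1 kb before the shared Flag peak. At least 1 HA peak was found in 27.7% of tiles as long as the Dnmt3a window and in 22.1% of tiles as long as that of Dnmt3b. For Flag, 33.7% of tiles of the Dnmt3a length held at least 1 peak. Of tiles of the Dnmt3b length, 27.7% held at least 1 Flag peak and 9.16% at least 2. A single peak in windows of these lengths is therefore not unusual in either list, though most such tiles were empty. Shared peaks alone were not counted in tiles of these lengths.

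The windows of Fgf5, the growth factor, and Pou3f1, the POU factor, were listed with Flag only. The Fgf5 window of 230 kb held a Flag peak of 338 bp (chromosome 5, 98739271 to 98739608), and the nearest HA peak lay 470 kb away (98268430 to 98268826). On the other side of that window the first HA peak began 1663 kb past its end (100472656 to 100473701). The Pou3f1 window of 210 kb held a Flag peak of 363 bp (chromosome 4, 124310549 to 124310911). Its nearest HA peak was 965 kb away (123344292 to 123345061), and the first HA peak past the window began 974 kb after its end (125413877 to 125414418). Both distances exceed the median of 155 kb for Flag-only peaks: 79.0% of the 2072 Flag-only peaks had an HA peak nearer than the Fgf5 peak did, and 92.5% had one nearer than the Pou3f1 peak did. By contrast the Flag-only peak at Dnmt3b was 47.3 kb from an HA peak, nearer than the median. A window as long as that of Fgf5 held at least 1 Flag peak in 26.9% of tiles and at least 1 HA peak in 21.5%, and for the Pou3f1 length these were 24.9% and 20.0%. Neither the single Flag peaks nor the missing HA peaks are thus unusual for windows of this size. The lists give only peaks that passed a threshold, so an absent peak does not show that the HA library lacked signal there.

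By density in HA, Otx2 was followed by Dnmt3b (4.17 peaks per Mb) and Dnmt3a (3.12), with no peak at Fgf5 and Pou3f1. In Flag, Otx2 was followed by Dnmt3b (8.33 peaks per Mb), Pou3f1 (4.76), Fgf5 (4.35) and Dnmt3a (3.12). The 95% Poisson intervals of neighbours in these orders overlapped, and so did those of Otx2 and every other locus in both lists (Dnmt3a, 0.0791 to 17.4 in each list; Fgf5, 0.110 to 24.2 in Flag). With 1 library per antibody no difference between loci could be tested.

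The Flag peak was the wider in 4 of the 5 pairs, beside 48.5% of all pairs in the lists. At the 3 Otx2 sites the Flag peak was the wider by ratios of 1.71, 1.45 and 1.19, while at Dnmt3a the ratio was 0.854 and at Dnmt3b the widths were 722 and 719 bp. Over all 2474 1 to 1 pairs of the lists the median ratio was 0.992, with 5% of pairs below 0.608 and 5% above 1.65. The pair at Otx2 site 1 exceeded 96.0% of all pairs in this ratio, and the other 4 pairs lay between those limits. No difference in this ratio between loci was tested. Centres were 66.0, 80.0 and 46.0 bp apart at the Otx2 sites, 9.5 bp at Dnmt3a and 193.5 bp at Dnmt3b, where the median of all pairs was 50.5 bp. The Dnmt3b pair was the most displaced of the 5, with 92.3% of all pairs closer, and 73.3% of its HA peak lay inside its Flag peak.

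**Figure D3:**
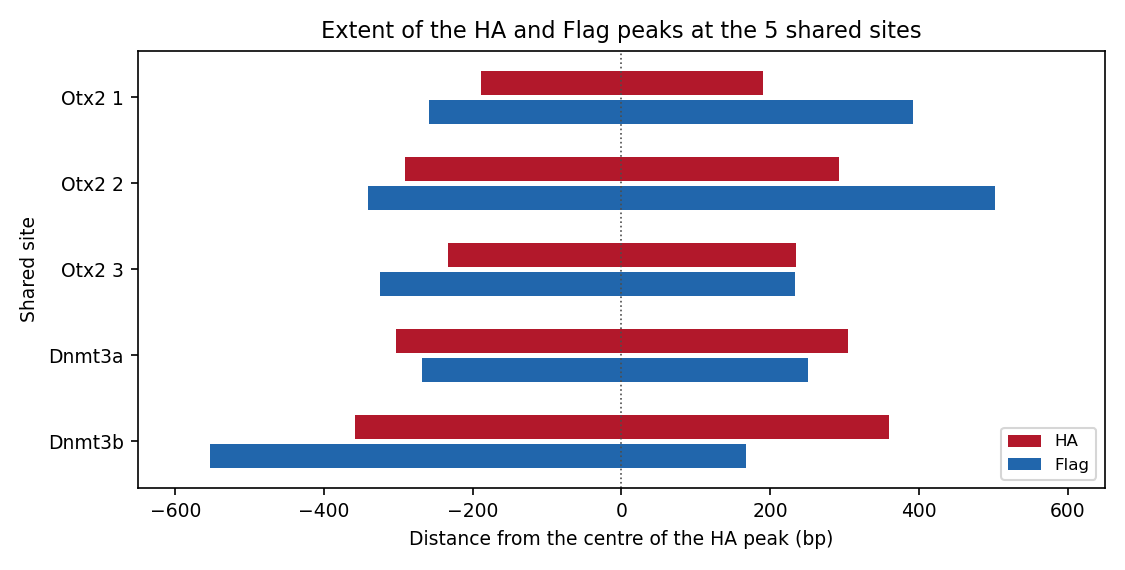
Extent in bp of the HA peak (upper bar) and the Flag peak (lower bar) at the 5 shared sites, aligned on the centre of the HA peak; Otx2 1 to 3 are in order of position. The Flag bar is longer at the 3 Otx2 sites, shorter at Dnmt3a, and displaced by 193.5 bp at Dnmt3b.

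The place of a peak in its deposited list differed sharply among the members, although the lists do not state what their order is. Otx2 site 3 stood at line 9 of 3406 in HA and line 59 of 4569 in Flag. It was 1 of 9 pairs within the first 100 lines of both lists, and of the first 100 lines 99% were shared in HA and 10% in Flag. Otx2 sites 1 and 2 stood at lines 827 and 446 in HA and 2700 and 1313 in Flag. The Dnmt3a site was at line 363 in HA and 1298 in Flag, and the Dnmt3b site at 657 and 2176. All 5 shared HA peaks were thus in the first 25% of the HA lines, where 32.9% of all 2496 shared HA peaks lay. Of all HA peaks in those lines 96.5% were shared. The latest of the 5, at Otx2 site 1, stood at 24.3% of the HA lines, just inside that limit. In Flag the same 5 sites stood at 1.29% to 59.1% of the lines, and no matching share was taken for Flag. The peaks of 1 list in these windows were mostly later. The Otx2 HA-only peak was at line 3403, 3 lines before the end, and the Dnmt3b Flag-only peak at line 4531. In the last 1% of lines 25.7% of HA and 28.3% of Flag peaks were shared. The Flag-only peaks of Pou3f1 and Fgf5 were at lines 1671 and 3315. That of Pou3f1 thus stood before the shared Flag peaks at lines 2176 and 2700.

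Otx2 site 3, near the head of both lists, was narrower in HA than the list's median of 547 bp, and 33.9% of HA peaks were narrower than it. Its Flag peak was wider than the list's median of 490 bp, with 62.2% of Flag peaks narrower. The Flag-only peaks of Fgf5 and Pou3f1 were the narrowest of the 8 Flag peaks, with 17.4% and 23.3% of the list narrower. Of all Flag peaks under 400 bp 31.8% were shared. The late unshared peaks at Otx2 and Dnmt3b were of middling width, with 51.8% of HA and 57.5% of Flag peaks narrower. The widest members were the Flag peak of Otx2 site 2, wider than 87.7% of its list, and the Dnmt3b pair, wider than 75.5% of HA and 79.6% of Flag peaks.

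**Figure D4:**
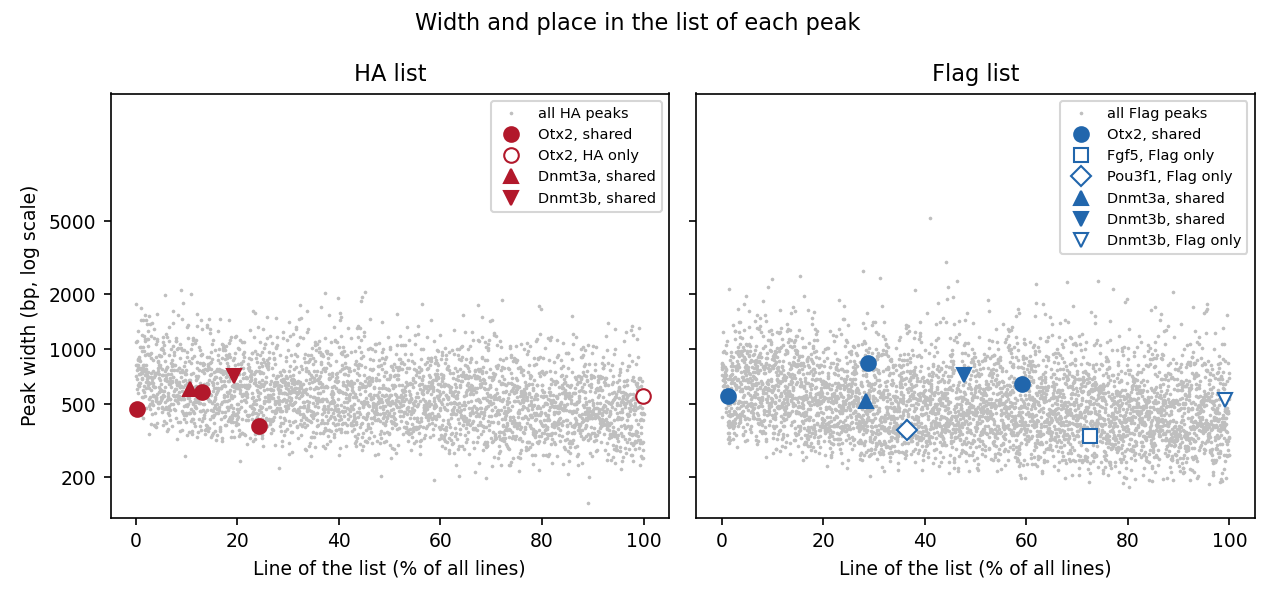
Width of every peak in bp (logarithmic axis) against its line as a percent of all lines, for HA (left) and Flag (right), with all peaks in grey and those of the 5 windows as coloured symbols, filled when shared. In HA the shared peaks stand in the first 25% of lines and the Otx2 HA-only peak near the end, while in Flag the shared peaks range from line 59 to line 2700.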

How the data were processed

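The authors deposited 1 list per antibody, giving the chromosome, start and end of each peak, with no height, score or p-value. Positions are on mm9, a build named in the submitters' processing notes. Aligner, caller, calling threshold, use of the input and read depth: not given in the sources used. Starts were converted to 1-based positions. The windows, and so the members, were chosen with earlier results of these data known. Every peak in them is named, and HA peaks outside are named only beside windows that held none. The tiles ran from position 1 to the last peak end of each of 20 chromosomes and were not matched to the windows for gene content. Intervals are 95% Wilson or exact Poisson and cover counting error only. With 1 library per antibody no test was made. A planned gene list needing an mm9 annotation was not used. Overlap code recovered 300 of 300 overlaps in simulated data and gave 2496 shared HA peaks, equal to bedtools 2.31.1. Python 3.11.15, numpy 2.4.6, scipy 1.17.1 and matplotlib 3.10.9 were used.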

Additional observations from a re-analysis of the deposited data

How the results depend on the processing

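The counts over the 5 windows (6 HA and 8 Flag peaks, 5 shared in each list) stayed within 1.5 times in 19 of 22 alternatives. In every alternative the shared count was the same in both lists, so these are not separate checks. Taking peaks by their centre could change no count, since no peak crossed a window edge. With the first 50% of the lines of each list, 5 Flag peaks remained. With the wider 50% of each list, 3 HA and 3 Flag peaks were shared, since the HA peaks of Otx2 sites 1 and 3 fall below the median width. Widening the windows by 50 kb at both ends raised the Dnmt3a count from 1 to 3 in HA and in Flag. Of the other 18 single-window values, only the Otx2 HA count changed, from 4 to 3 with windows shortened by 25 kb. The 10 tile shares stayed close with tiles started later, but shares over so many tiles can hardly move with such a shift. No paired analysis was possible because there is 1 library for each antibody, and no replicate could be left out. The unknown depth leaves weaker signal at these loci unmeasured.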

Other observations

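Stretches of 250 kb without a peak are the common case: 77.1% of consecutive genome tiles of that length held no HA peak and 71.5% no Flag peak. In the 250 kb on either side of the Fgf5 window neither list held a peak. Beyond the Pou3f1 window there were 2 more Flag peaks within 250 kb, neither shared with HA. In the 250 kb before the Dnmt3a window both lists held 2 peaks, all shared, and in the 250 kb after it none. Before the Dnmt3b window 1 HA peak and 2 Flag peaks were listed, with 1 of each shared. The Otx2 window had 1 shared peak of each list in the 250 kb after it and 1 Flag-only peak before it. These flanks were examined after the peaks of the windows had been seen, and no difference between loci was tested.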
